A study of Mus musculus with 28 samples.

Results

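The 34 genes described here belong to the NRF2 and antioxidant program of the cell. They cover NRF2 itself and its regulators, the enzymes that make and recycle glutathione, and the thioredoxin and peroxiredoxin system. The rest are enzymes that remove superoxide and peroxide, detoxifying enzymes, and malic enzyme with the pentose phosphate pathway, grouped as NADPH supply. The 34 were taken by symbol from a list of the pathway's genes, drawn up with earlier results of these data known, out of 54427 gene symbols in the deposited tables. All 34 were found once in each table, had counts in all 28 libraries (the lowest was 32 counts, for Nqo1) and passed the filter on low counts in every comparison.

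NRF2, the product of Nfe2l2, is a transcription factor that KEAP1 holds in the cytoplasm and sends for degradation. Oxidants and electrophiles modify KEAP1, NRF2 then enters the nucleus, pairs with a small MAF protein and binds antioxidant response elements (AREs) near its target genes. The control is mainly on the protein, so the mRNA of Nfe2l2 need not move when its targets do. In microglia, the macrophages of the brain, the same enzymes buffer the superoxide and nitric oxide that activated cells make.

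The cells were primary microglia from APOE3 mice (labelled WT) or from mice with the Christchurch form of APOE3 (APOE3S/S, labelled Christchurch), and RNA was measured by counting 3′ tags. Both genotypes were left untreated (labelled Control) or given tau or amyloid, with 6 untreated, 6 tau and 3 amyloid libraries for APOE3 and 4, 6 and 3 for APOE3S/S. The labels give no age of the mice, dose, time of treatment or form of tau or amyloid. Nor is it stated if the replicates of a group came from different mice or cultures, so the p-values reflect only how these libraries vary among themselves, and that variation may be technical.

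Library titles follow 2 naming series, called here the SAN title series (17 libraries, with all amyloid libraries) and the second title series (11 libraries, untreated and tau only). The labels do not say what sets the series apart, and each tau group holds 3 libraries of each. Libraries held 14464761 to 27220695 counts. Values are given as CPM (a gene's counts per 1e+06 counts of its library), not per length, since each transcript gives a tag at its 3′ end. Of the microglia and macrophage markers, Csf1r was at 2018 to 3332 CPM and C1qa at 1659 to 4460.0 CPM, while P2ry12 (9.38 to 30.8 CPM) and Tmem119 (0.910 to 5.83 CPM) were low in all libraries. The 7 neuron markers summed to 0.697 to 5.09 CPM. Other lists were higher: 8 border macrophage and monocyte markers summed to 1123 to 3501 CPM, 9 oligodendrocyte markers to 111 to 191 CPM and 9 astrocyte markers to 31.6 to 115 CPM. Of 5 endothelial markers Cldn5 had 0 counts in all 28 libraries, while Flt1 was at 24.7 to 69.4 CPM and Kdr at 4.09 to 18.2 CPM. Among granulocyte and lymphocyte markers S100a9, Mpo and Nkg7 had 0 counts in all libraries, while S100a8 was at 2.30 to 21.5 CPM.

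One library stood apart within its group. In APOE3S/S amyloid replicate 3 the 34 genes took 1.38% of counts, against 0.833% and 0.887% in the other libraries of that group. There, 29 of the 34 genes (85.3%) were higher than in both others, as were 39.8% of 12071 genes with a mean of at least 1 CPM. Its values for most of the 34 genes reached those of tau libraries of its genotype (below). Whether its label is right was not tested, so its amyloid values are uncertain, and results that rest on this library are given with and without it. It was set apart by these same genes, so results without it are shaped by that choice.

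The 250 bases before RefSeq start sites (GRCm38.p6) were searched for 3 motifs, since many of these genes moved together. A gene can have more than 1 start site (32851 windows for 27025 genes), and the windows matched 30 of the 34 genes (Abcc1, Gclc, Gsr and Prdx6 had no entry). The core of the ARE, TGACNNNGC on either strand, was found in 8 of the 30 genes (26.7%) and in 11.5% of the 27025 genes. The letters bound by AP-1, TGANTCA, read the same on both strands and were found in 4 of the 30 (13.3%) and in 7.82% of all. The response letters of ATF4, TGATGNAA on either strand, were found in 1 of the 30 (3.33%) and in 3.91% of all. A match is a run of letters and was not measured as a bound site. Sequence outside these windows was not searched, so a gene without a match may hold the letters elsewhere.

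Of the 8 genes with an ARE core, 5 are shown because results below turn on them (the other three were Mafg, Sod1 and Ugdh). The match is in capitals, read on the strand of the gene, so that a core on the opposite strand (all but Nfe2l2) appears as its reverse complement. The Txnrd1 window begins 25147 bases and the G6pdx window 241 bases past the gene start in the GENCODE annotation, so both lie inside the annotated gene, before another start site. In Prdx1 the ARE core overlaps an AP-1 match, the only such overlap among these cores.
Prdx1, chr4:116685450-116685490, plus strand: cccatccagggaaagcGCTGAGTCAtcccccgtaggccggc
Txnrd1, chr10:82859098-82859138, plus strand: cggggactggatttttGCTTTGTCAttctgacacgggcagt
G6pdx, chrX:74428913-74428953, minus strand: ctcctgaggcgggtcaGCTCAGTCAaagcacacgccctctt
Gclm, chr3:122245407-122245447, plus strand: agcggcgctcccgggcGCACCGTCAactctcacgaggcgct
Nfe2l2, chr2:75704879-75704913, minus strand: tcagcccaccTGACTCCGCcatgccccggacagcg

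Slc7a11 was the only one of the 30 with the ATF4 letters, which it held on both strands. Glrx, Osgin1 and Srxn1 had the AP-1 letters without an ARE core. Slc7a11 and Glrx are shown as genes that rose with tau in both genotypes.
Slc7a11, chr3:50443656-50443695, minus strand: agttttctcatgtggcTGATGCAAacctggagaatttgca
Slc7a11, chr3:50443637-50443676, minus strand: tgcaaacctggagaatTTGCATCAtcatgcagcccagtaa
Glrx, chr13:75839771-75839809, plus strand: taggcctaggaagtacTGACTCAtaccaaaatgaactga

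Tau raised 10 of the 34 genes in APOE3 microglia and lowered none. Among all 13905 genes tested, 8.98% were called higher and 5.87% lower. A gene was called at an adjusted p under 0.05 in edgeR's quasi-likelihood test, with a term for title series. The median log2 fold change of the 34 was 0.32, against -0.02 over all genes tested, and 29 of the 34 were above 0. The largest rises were in Nqo1, Slc7a11, Sod2, Prdx5, Glrx and Prdx6, between 1.69-fold and 3.48-fold, and the others called were Abcc1, Esd, Gsr and Keap1. In 4 of the 10 (Slc7a11, Nqo1, Glrx and Prdx6) every tau library lay above every untreated library, which held for 2.51% of all genes tested.

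Of the 5 regulators, 1 was called. Nfe2l2 (chromosome 2, 75675513 to 75704641) spanned 249 to 352 CPM over all 28 libraries, the narrowest fold range of the 34, and its tau change was 0.11 ± 0.07 on the log2 scale (SE; adjusted p = 0.31) in APOE3 microglia. Keap1 (chromosome 9, 21229730 to 21239361), which encodes the sensor that holds NRF2 back, was at 58.9, 64.7 and 74.0 CPM (lowest, median and highest of 6) in untreated APOE3 libraries and at 61.7, 91.4 and 115 CPM with tau. The values of Keap1 overlapped, and it rose by 0.47 ± 0.12 on the log2 scale (1.39-fold, adjusted p = 0.0072). Mafg, a small MAF partner of NRF2, changed by -0.03 ± 0.09, Sqstm1, whose product p62 binds KEAP1, by -0.04 ± 0.11, and Osgin1, an oxidative stress-induced gene, by 0.40 ± 0.16. None of these 3 was called (adjusted p = 0.90, 0.87 and 0.089).

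Of the 6 genes for glutathione supply and export, 3 were called. Slc7a11 (chromosome 3, 49892526 to 50443614) encodes the light chain of the cystine-glutamate exchanger xCT, which brings in the cystine for glutathione. In untreated APOE3 libraries it was at 31.9, 49.5 and 101 CPM (lowest, median and highest), and with tau at 105, 191 and 283 CPM. The highest untreated library was just below the lowest tau library, and the rise was 1.66 ± 0.35 on the log2 scale (3.16-fold, adjusted p = 0.0023). Gsr (chromosome 8, 33652523 to 33698163), the reductase that regenerates glutathione, rose by 0.50 ± 0.12 (adjusted p = 0.0057). Abcc1 (chromosome 16, 14361558 to 14475737), which exports glutathione and its conjugates, rose by 0.72 ± 0.23 (adjusted p = 0.041). The call of Abcc1 was lost when any 1 of 8 of the 12 libraries was left out (all but APOE3 untreated replicates 4 and 5 and APOE3 tau replicates 1 and 2), with adjusted p up to 0.12 and changes of 0.56 to 0.89. Of the glutamate-cysteine ligase that limits glutathione synthesis, the modifier subunit Gclm changed by 0.54 ± 0.19 (adjusted p = 0.055) and the catalytic subunit Gclc by -0.11 ± 0.12 (adjusted p = 0.62). Gss, glutathione synthetase, changed by 0.31 ± 0.18 (adjusted p = 0.28).

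Nqo1 (chromosome 8, 107388225 to 107403206), the quinone reductase often used as a readout of NRF2, had the fewest tags of the 34 and the largest rise. It was at 3.24, 5.29 and 7.26 CPM in untreated APOE3 libraries and at 8.84, 20.6 and 37.8 CPM with tau, so that the groups did not overlap. The rise was 1.80 ± 0.31 on the log2 scale (3.48-fold, adjusted p = 0.00050). Esd (chromosome 14, 74732297 to 74750765), which hydrolyses S-formylglutathione, rose by 0.57 ± 0.17 (adjusted p = 0.028). That call was lost without any 1 of APOE3 untreated replicates 1, 2 and 3 and tau replicates 4 and 6, all of the SAN series (adjusted p up to 0.085). The aldo-keto reductase Akr1b8 (0.02 ± 0.16), the glutathione transferase Gstm1 (-0.18 ± 0.12) and Ugdh (0.07 ± 0.07), which makes UDP-glucuronate for conjugation, were not called (adjusted p = 0.96, 0.37 and 0.55). Gstm1 has close copies in its family, and how reads were divided between such copies is not given in the sources used here.

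Of 8 thioredoxin, glutaredoxin and peroxiredoxin genes, 3 were called. Glrx (chromosome 13, 75839868 to 75850154), the glutaredoxin that removes glutathione from proteins, was at 61.5, 66.3 and 79.2 CPM untreated and at 111, 179.7 and 266 CPM with tau. The groups did not overlap, and the rise of 1.33 ± 0.21 (2.51-fold, adjusted p = 0.00036) had the smallest p of the 34. Prdx6 (chromosome 1, 161240112 to 161251219), a peroxidase that acts on phospholipid peroxides with glutathione, was at 66.1, 72.9 and 81.9 CPM untreated and at 101, 120.1 and 140.3 CPM with tau. Its groups did not overlap either, and it rose by 0.76 ± 0.13 (1.69-fold, adjusted p = 0.00050). Prdx5 (chromosome 19, 6906697 to 6910106), a peroxiredoxin found in mitochondria and peroxisomes, was at 227, 290.2 and 485 CPM untreated and at 321, 913 and 1730.4 CPM with tau. The tau values were widely spread and overlapped the untreated ones, and the rise was 1.33 ± 0.24 (2.52-fold, adjusted p = 0.00079). Prdx1, with the most tags of the 34, changed by 0.56 ± 0.24 (adjusted p = 0.13), and Prdx2, Txn1, Txnrd1 and Srxn1 by 0.17 to 0.35, with none called. Prdx1, Txn1 and Gpx4 have processed pseudogene copies, with which the counting may have shared reads.

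Sod2 (chromosome 17, 13006846 to 13040063), the mitochondrial superoxide dismutase, is also a known target of NF-kB. It was at 92.3, 108 and 149.5 CPM in untreated APOE3 libraries and at 114, 451 and 830.5 CPM with tau. The lowest tau library lay within the untreated range, and the rise was 1.64 ± 0.29 (3.11-fold, adjusted p = 0.00059). The other 4 genes of its class were not called: the cytosolic dismutase Sod1 changed by -0.21 ± 0.13, the catalase gene Cat by 0.09 ± 0.09, the glutathione peroxidase Gpx1 by 0.26 ± 0.12 and Gpx4, which protects membranes from lipid peroxides, by 0.08 ± 0.13. Of the 5 genes grouped under NADPH supply, edgeR called 0, and 3 had an unadjusted p under 0.05: the malic enzyme gene Me1 (0.69 ± 0.25), Pgd (0.39 ± 0.15) and G6pdx (0.32 ± 0.14). Tkt and Taldo1 of the pentose phosphate pathway changed by 0.15 ± 0.11 and 0.19 ± 0.11.

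**Figure D1:**
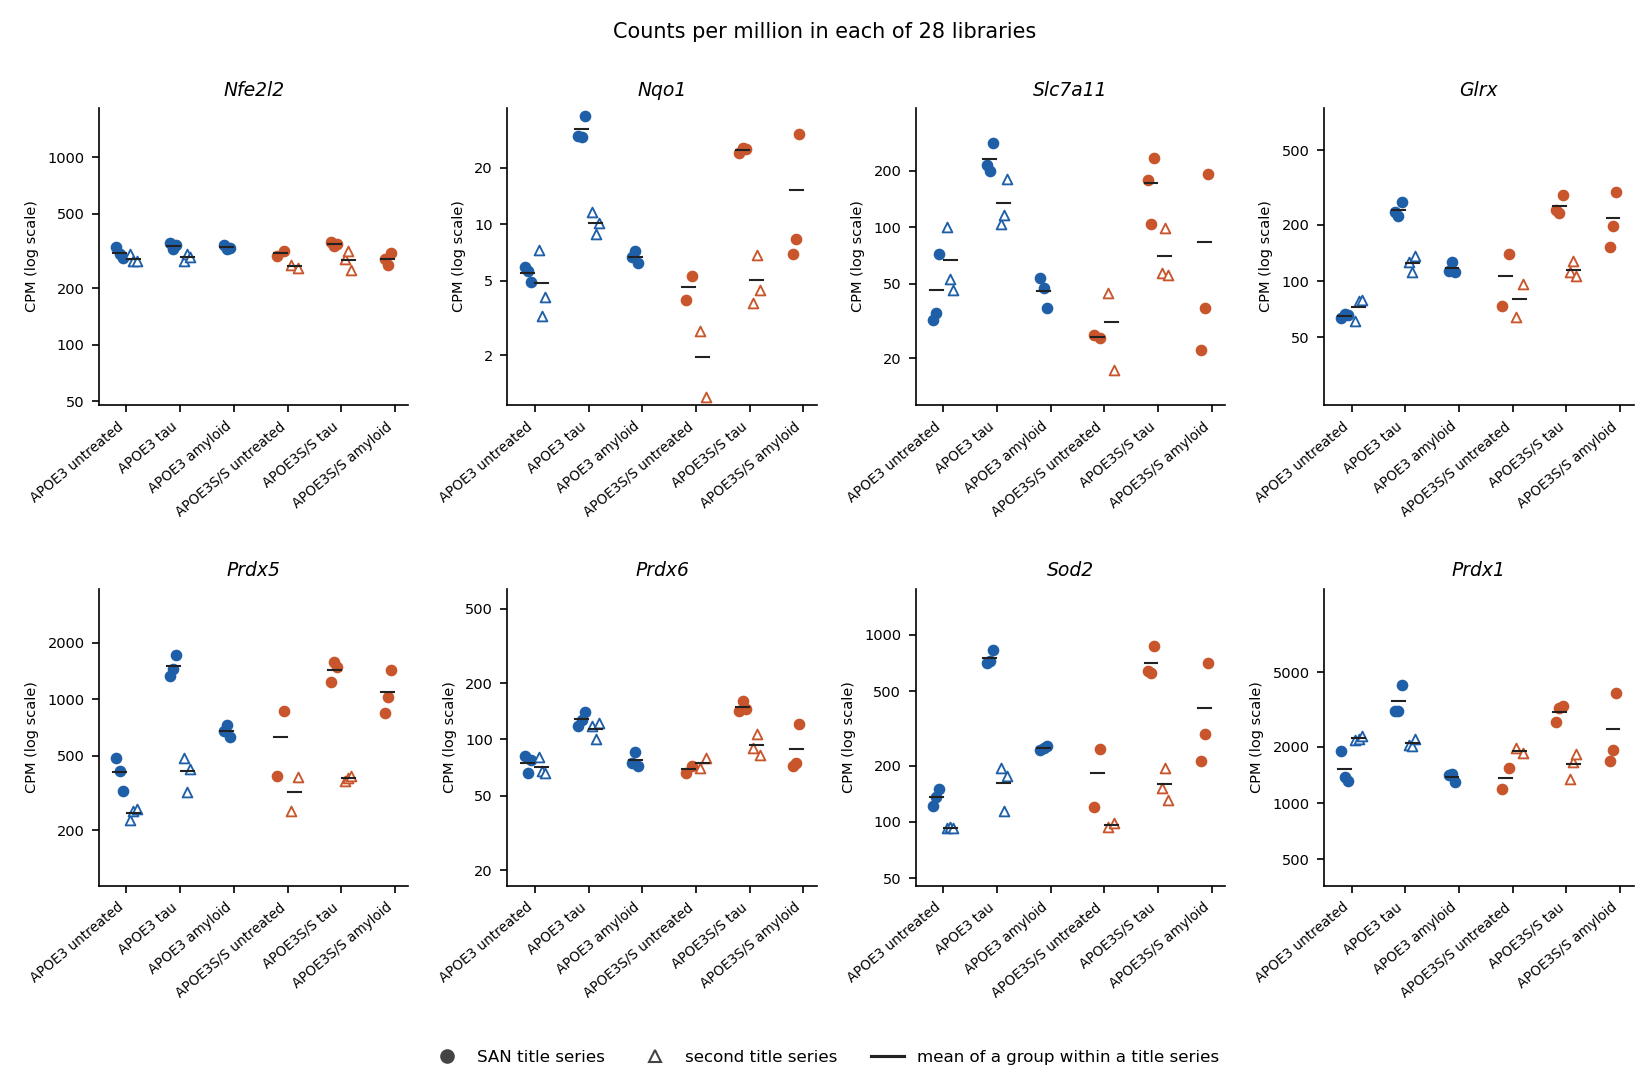
CPM on a log scale (y axis, the same fold range in each panel) of 8 genes in each of 28 libraries, by genotype and treatment (x axis). Filled circles are SAN title series libraries, open triangles second title series libraries and bars the means of a group within a series. Nfe2l2 stays between 249 and 352 CPM, Nqo1 reaches 37.8 CPM in a SAN tau library, and 1 APOE3S/S amyloid library stands apart at 30.5 CPM.

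Tau in APOE3S/S microglia raised 5 of the 34 genes and lowered none, where 2.14% of all genes tested were called higher and 1.14% lower. All 5 were also called in APOE3 microglia. Nqo1 was at 3.97, 5.32, 2.70 and 1.20 CPM in the 4 untreated libraries and at 3.78, 15.4 and 25.6 CPM (lowest, median and highest of 6) with tau. It rose by 2.01 ± 0.37 on the log2 scale (4.04-fold, adjusted p = 0.0087), although the lowest tau library lay below the highest untreated one. Slc7a11 was at 26.5, 25.5, 44.9 and 17.3 CPM untreated and at 56.0, 101 and 234 CPM with tau. Its groups did not overlap, and it rose by 2.00 ± 0.41 (4.01-fold, adjusted p = 0.014).

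Prdx6 was at 66.0, 72.3, 70.6 and 79.9 CPM in untreated APOE3S/S libraries and at 82.1, 124 and 160.2 CPM with tau, a rise of 0.72 ± 0.15 (1.64-fold, adjusted p = 0.013). Slc7a11 and Prdx6 were the 2 genes of the 34 whose tau libraries all lay above the untreated ones, which held for 1.11% of all genes tested. Sod2 rose by 1.35 ± 0.32 (2.55-fold, adjusted p = 0.028), from 119, 244, 94.2 and 98.4 CPM to 132, 408 and 870.1 CPM. Glrx rose by 0.90 ± 0.24 (1.87-fold, adjusted p = 0.041), from 73.7, 139, 64.2 and 95.9 CPM to 106, 179 and 287 CPM. Untreated replicate 2 was the high one of its group for both Sod2 and Glrx.

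The APOE3S/S calls rested on few libraries. Without untreated replicate 1 none of the 5 and 0.24% of all genes were called, with adjusted p of 0.055 for Nqo1, 0.074 for Slc7a11 and 0.076 for Prdx6. Without tau replicate 4 or 6, 3 were called in each case (0.965% and 0.654% of all genes), and Glrx was lost in 6 of the 10 fits without 1 library (untreated replicates 1 and 3 and tau replicates 2, 4, 5 and 6; adjusted p up to 0.14). The median change of the 34 was 0.33, against -0.01 over all genes tested, and 30 of the 34 were above 0. Prdx5 (0.72 ± 0.27, adjusted p = 0.14), Gclm (0.70 ± 0.21, adjusted p = 0.069), Abcc1 (0.90 ± 0.27, adjusted p = 0.065) and Gsr (0.46 ± 0.14, adjusted p = 0.059) were not called.

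**Figure D2:**
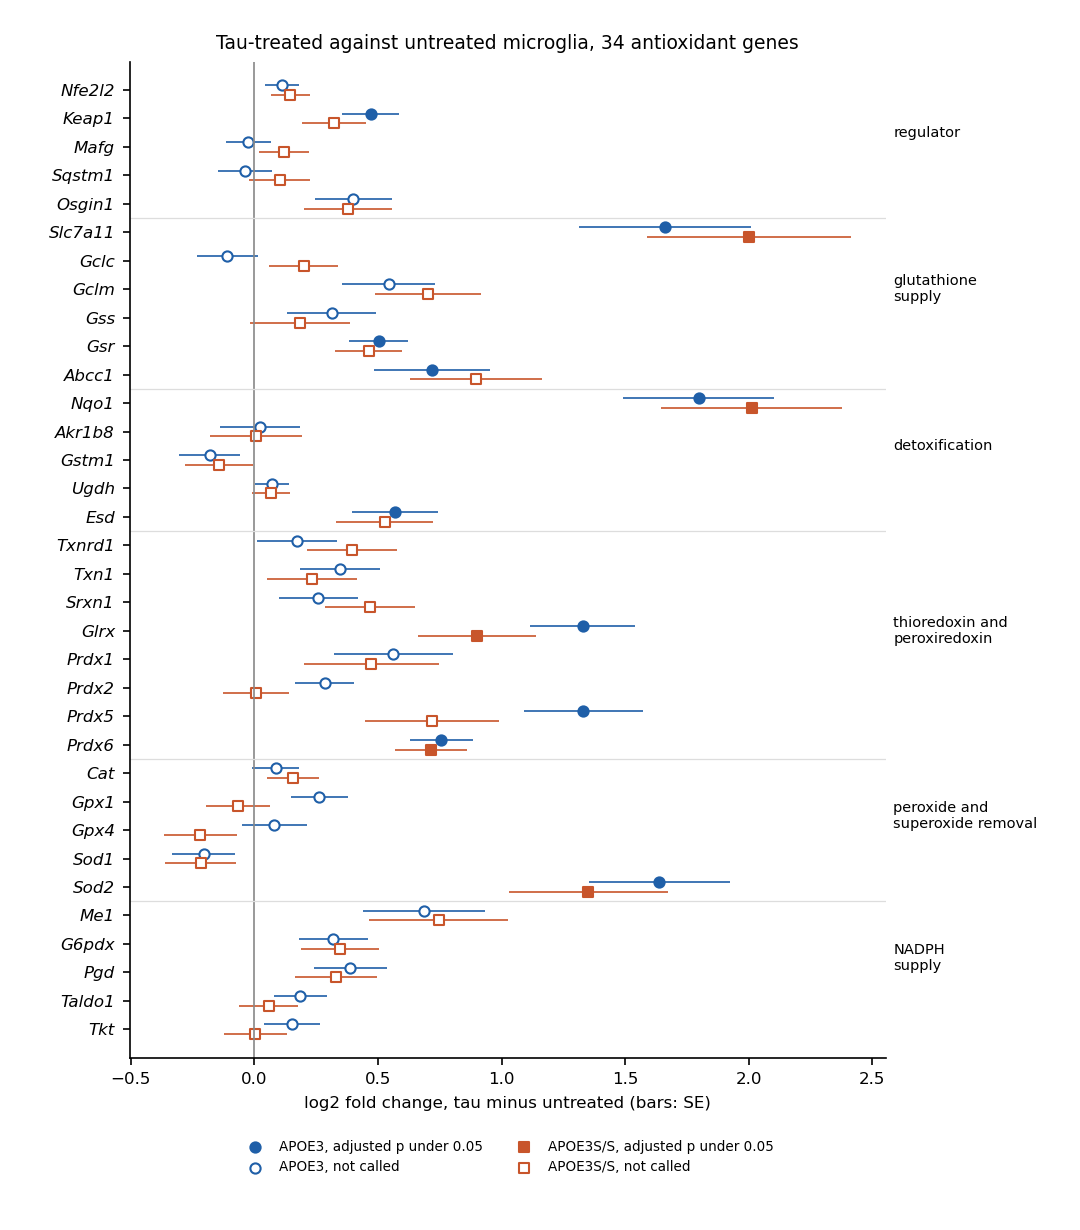
Log2 fold change of tau against untreated (x axis, with standard errors) for the 34 genes (y axis, grouped by role) in APOE3 (circles) and APOE3S/S microglia (squares), with filled symbols for genes called at an adjusted p under 0.05. Nqo1 lies at 1.80 and 2.01 and Slc7a11 at 1.66 and 2.00, while Nfe2l2 lies at 0.11 and 0.15.

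The tau changes of the genotypes were compared directly by an interaction term. With edgeR, 0 of the 34 genes were called, as were 0% of all genes tested. DESeq2 called 0 of the 34 and 0% of all genes. At an unadjusted p under 0.05 there were 0 of 34 and 2.04% of all genes. The differences, APOE3S/S minus APOE3, ran from -0.61 ± 0.35 for Prdx5 to 0.34 ± 0.51 for Slc7a11 on the log2 scale. For Nqo1 the difference was 0.22 ± 0.46, with an interval by normal approximation of -0.69 to 1.12. That interval still holds sizeable differences in both directions. Title series enters these tau fits as a shift common to all groups. Tau changes that differ between the series (below) thus widen the spread used in this test and in the tau calls above. Fitted within the SAN series alone and the second alone, the interaction called 0 of the 34 and 0% of all genes in each.

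The tau change was larger in the SAN title series than in the second for many of these genes. Within the SAN series alone, 19 of the 34 genes were called higher in APOE3 microglia (11.7% of all genes tested), with a median change of 0.58. Within the second series alone, 4 were (1.91% of all genes tested): Sod2, Glrx, Prdx5 and Prdx6, with a median change over the 34 of 0.11. The difference itself was tested in a model with a mean for each genotype, treatment and series. In it 14 of the 34 had a larger tau change in the SAN series and 0 a smaller one, where 2.93% of all genes tested were called larger and 2.69% smaller. The 14 were Gss, Gsr, Abcc1, Nqo1, Esd, Txnrd1, Glrx, Prdx1, Prdx5, Sod2, Me1, G6pdx, Pgd and Tkt.

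Prdx1 (chromosome 4, 116685544 to 116700822), an abundant cytosolic peroxiredoxin, showed the pattern in its values. In APOE3 libraries of the SAN series it was at 1905, 1377 and 1304 CPM untreated and at 3117, 3103 and 4252 CPM with tau. In the second series it was at 2165, 2195 and 2289.5 CPM untreated and at 2046, 2010.0 and 2210.5 CPM with tau. All SAN tau libraries were above all SAN untreated ones, while in the second series the values overlapped, and the difference between the changes was 1.33 ± 0.24 on the log2 scale (adjusted p = 0.0032).

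Most genes grouped under NADPH supply followed the same division. G6pdx, which encodes the first enzyme of the pentose phosphate pathway, was at 181, 191 and 175 CPM untreated and at 282, 308 and 301 CPM with tau in the SAN series. In the second series it was at 201, 182 and 173 CPM untreated and at 159, 165 and 184 CPM with tau. The groups were apart in the SAN series and overlapped in the second, with changes of 0.79 ± 0.12 and -0.12 ± 0.09, and the difference of 0.89 ± 0.14 (adjusted p = 0.0014) had the smallest p of the 34. Pgd, the next NADPH-producing step, differed by 0.76 ± 0.15 (adjusted p = 0.0048), Tkt by 0.53 ± 0.14 (adjusted p = 0.034) and Me1 by 1.13 ± 0.31 (adjusted p = 0.036). Taldo1, which acts beside Tkt, differed by 0.09 ± 0.19 (adjusted p = 0.88).

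Nqo1 went from 5.91, 5.63 and 4.94 CPM to 29.6, 29.4 and 37.8 CPM in the SAN series and from 7.26, 3.24 and 4.07 CPM to 11.7, 8.84 and 10.1 CPM in the second. The tau libraries were the higher ones in both, by unequal amounts (difference 1.52 ± 0.38, adjusted p = 0.023). Sod2 went from 122, 135 and 149.5 CPM to 708, 719 and 830.5 CPM in the SAN series and from 93.0, 94.0 and 92.3 CPM to 194, 114 and 176 CPM in the second (difference 1.74 ± 0.32, adjusted p = 0.0033). Prdx6 changed by 0.86 ± 0.13 in the SAN series and by 0.68 ± 0.12 in the second, a difference of 0.15 ± 0.18 that was not called (adjusted p = 0.73). Slc7a11 differed by 1.39 ± 0.53 (adjusted p = 0.14).

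Several of these calls depended on single libraries. Prdx1, Sod2, G6pdx and Pgd remained called whichever of the 12 APOE3 libraries was left out. The count of genes fell to 4 without APOE3 tau replicate 2 or 6, 6 without untreated replicate 4, 7 without untreated replicate 5 or tau replicate 1, 8 without untreated replicate 3 and 9 without untreated replicate 2 or 6 or tau replicate 5. Over all genes these fits called between 3.06% and 5.15%.

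With APOE3S/S, 17 of the 34 were called higher with tau in the SAN series alone (2.52% of all genes tested). In the second series alone edgeR called 0 (2.26% of all genes tested, in either direction), and 10 had an unadjusted p under 0.05, 4 higher (Nqo1, Sod2, Slc7a11 and Glrx) and 6 lower (DESeq2 was not run within a series). In the test of the difference, 10 genes had a larger change in the SAN series and 0 a smaller one (0.539% and 0.41% of all genes tested): Gss, Esd, Txnrd1, Srxn1, Prdx1, Prdx6, Me1, G6pdx, Pgd and Tkt. Prdx1 was at 1187 and 1534 CPM untreated and at 2718, 3205 and 3309 CPM with tau in the SAN series, and at 1957 and 1842 CPM and 1339.8, 1662 and 1826 CPM in the second. Tau libraries were thus above untreated ones in the first and below them in the other, a difference of 1.51 ± 0.27 (adjusted p = 0.011). Without untreated replicate 1, 1 of only 2 untreated SAN libraries, none of the 34 and 0.0141% of all genes were called. The count was 3 without untreated replicate 4 or tau replicate 6, 4 without tau replicate 1 or 3, 6 without tau replicate 2 or 5, and 16 without untreated replicate 3 (from 0.148% to 11.2% of all genes).

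Depth differed between the series, and its part in the result was not tested. The 17 SAN libraries held 14464761 to 18683896 counts and the 11 of the second series 15967897 to 27220695. The share of counts in the 34 genes was 0.712 to 1.55% in the SAN series and 0.684 to 0.892% in the second.

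**Figure D3:**
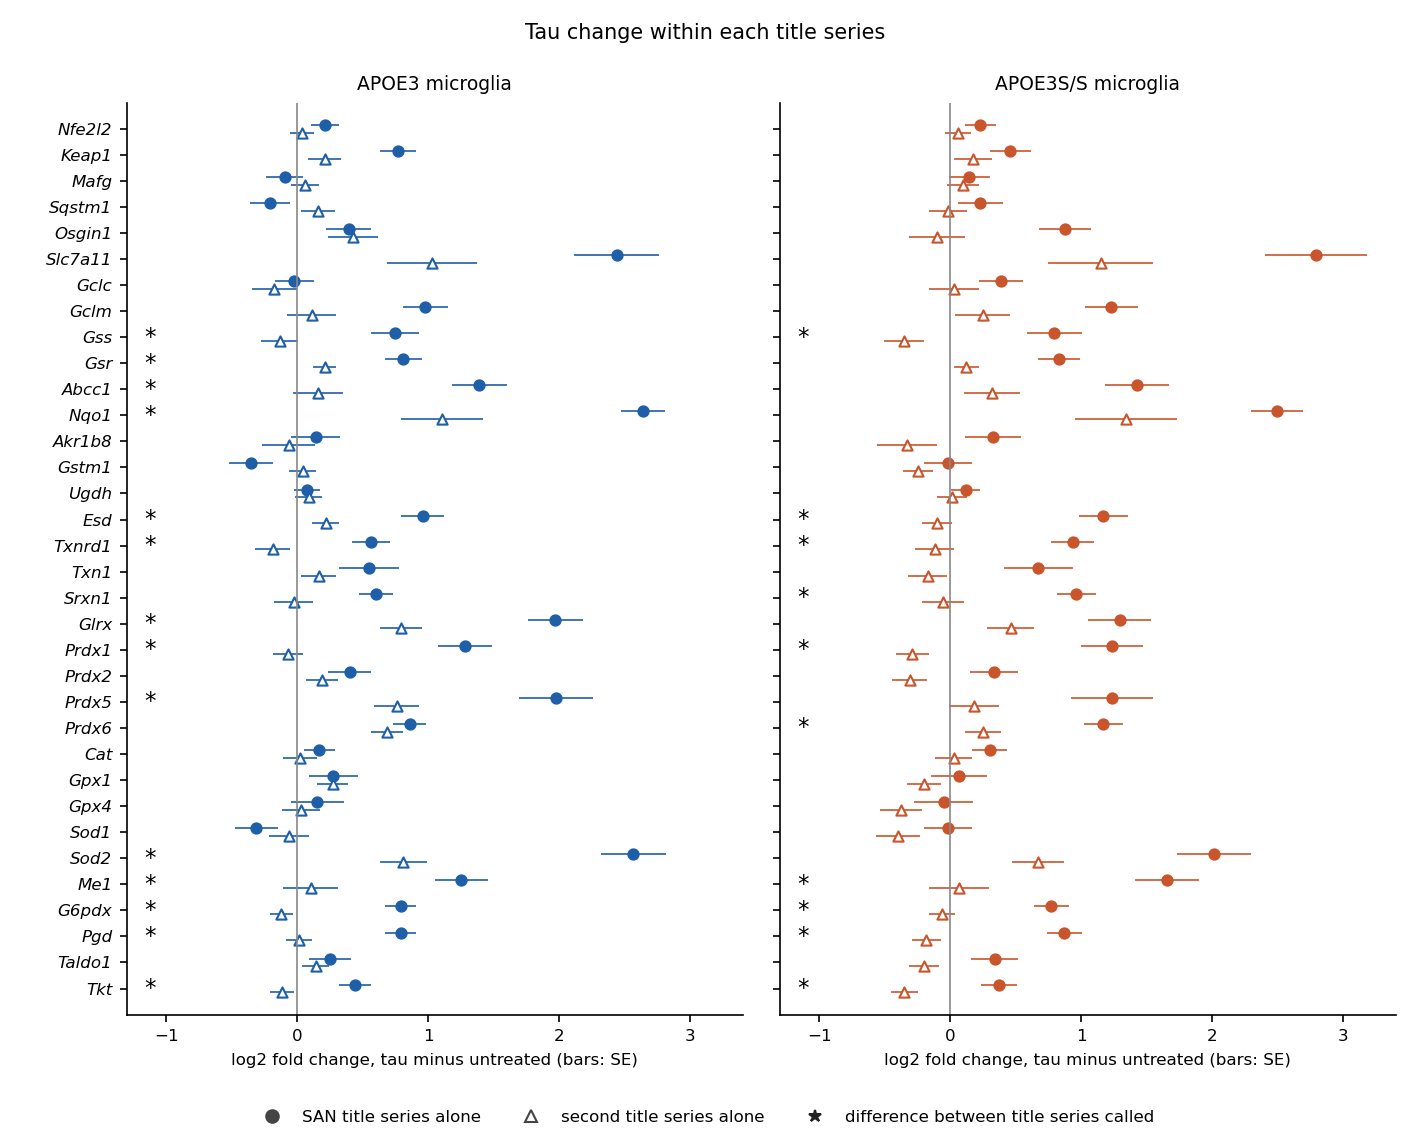
Log2 fold change of tau against untreated (x axis, with standard errors) for the 34 genes (y axis), fitted within the SAN title series alone (filled circles) and within the second alone (open triangles), in APOE3 (left) and APOE3S/S microglia (right). Asterisks mark the 14 and 10 genes whose change differed between the series, such as G6pdx in APOE3 microglia, at 0.79 and -0.12.

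Genes around the pathway, from lists written beside the 34, gave a mixed picture with tau. Of 10 other regulators of NRF2, 2 rose in APOE3 microglia: Nfe2l1 (0.36 ± 0.10, adjusted p = 0.013), a relative of NRF2 that governs proteasome genes, and Mafk (0.30 ± 0.08, adjusted p = 0.014), another small MAF. With APOE3S/S edgeR called 0 of the 10, and 2 were higher at an unadjusted p under 0.05. Of 24 other known NRF2 targets, 5 rose and 1 fell in APOE3 microglia, with a median log2 change of 0.04. The glutathione transferases Gsta3 (2.35 ± 0.35, adjusted p = 0.00019) and Mgst2 (1.62 ± 0.28, adjusted p = 0.00050) and the transporter Abcc5 (0.72 ± 0.16, adjusted p = 0.0029) had the smallest p. With APOE3S/S 1 rose, Gsta3 (1.79 ± 0.42, adjusted p = 0.026), and 1 fell, Ephx1, an epoxide hydrolase (by 0.91 ± 0.17, adjusted p = 0.0095). Ephx1 was also the one that fell in APOE3 microglia. Hmox1, heme oxygenase 1, is named here after its values were seen: its tau change was 0.03 ± 0.12 in APOE3 microglia (adjusted p = 0.92) and 0.17 ± 0.14 in APOE3S/S microglia (adjusted p = 0.54).

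Of 29 tested genes for other redox enzymes (30 listed), 4 rose and 3 fell in APOE3 microglia (median -0.03). Gpx3, a secreted glutathione peroxidase, fell by 1.07 ± 0.17 (adjusted p = 0.00038), Nadk, which makes NADP from NAD, rose by 0.65 ± 0.12 (adjusted p = 0.00096), and Sesn2, a stress-induced sestrin, rose by 0.44 ± 0.09 (adjusted p = 0.0026). For APOE3S/S edgeR called 0 higher (3 at an unadjusted p under 0.05) and 1 lower, which was Gpx3 (by 0.89 ± 0.19, adjusted p = 0.017).

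Several genes that make oxidants rose with tau as well. Of 10 tested (11 listed), 5 rose in APOE3 microglia and none fell, with a median change of 0.48. Nos2, the inducible nitric oxide synthase, rose by 3.61 ± 0.68 (adjusted p = 0.0010), Ncf1, a cytosolic subunit of the phagocyte NADPH oxidase, by 0.63 ± 0.09 (adjusted p = 0.00018), and Xdh, xanthine dehydrogenase, by 0.72 ± 0.18 (adjusted p = 0.0083). In APOE3S/S microglia 2 of the 10 rose, Nos2 by 3.79 ± 0.82 (adjusted p = 0.017) and Ncf1 by 0.38 ± 0.10 (adjusted p = 0.043).

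Slc7a11 is also a target of ATF4, the factor of the amino acid response. Of 16 tested genes of that response (17 listed), 9 rose and 1 fell in APOE3 microglia (median 0.48). Nupr1, a stress-induced cofactor, rose by 1.12 ± 0.24 (adjusted p = 0.0026), as did Sesn2, which both lists hold, and Psat1, of serine synthesis, fell by 0.84 ± 0.20 (adjusted p = 0.0058). For APOE3S/S edgeR called 0 of the 16, and 6 were higher at an unadjusted p under 0.05. Of the 10 members called with tau in APOE3 microglia, 7 had a promoter window: 0 held the ARE core, 1 (Glrx) the AP-1 letters and 1 (Slc7a11) the ATF4 letters. Of the members not called there, 23 had a window: 8 held the ARE core, 3 the AP-1 letters and 0 the ATF4 letters. Of the 19 called in the SAN series alone, 16 had a window and 4 held the ARE core (G6pdx, Gclm, Prdx1 and Txnrd1, shown above). Of those not called in that series, 14 had a window and 4 held the core. These counts cover only the 250 bases before a start site, and a link between motif and call was not tested.

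Markers of other cells are given beside the tau result. Their part in it was not tested, and in bulk RNA fewer cells of a type and less RNA per cell cannot be told apart. In APOE3 microglia the 8 markers of border macrophages and monocytes summed to 1171 to 2642 CPM untreated and to 1219.6 to 2958 CPM with tau (Lyve1 at 0 in 22 of 28 libraries), and 3 of 7 tested rose. The 7 markers of fibroblasts and pericytes summed to 1.30 to 16.6 CPM and to 1.85 to 38.8 CPM, with 1 of 5 called, and the 9 astrocyte markers to 31.6 to 61.9 CPM and to 42.7 to 87.4 CPM, with 1 of 8 called. Named after their values were seen, these were Ly6c2, Vcan and Cd163, then Pdgfrb, then Aldh1l1. Of the 10 microglia and macrophage markers, 6 rose and 2 fell with tau, and their sum was 5549 to 6496 CPM untreated and 5863 to 6856 CPM with tau. Of 4 endothelial markers tested 2 rose and 1 fell, while none of 9 oligodendrocyte and 5 neuron markers was called by edgeR (2 and 0 at an unadjusted p under 0.05). In APOE3S/S microglia, 1 fibroblast and pericyte marker and 1 border macrophage and monocyte marker (Vcan) rose.

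Without treatment, none of the 34 genes was called between the genotypes by edgeR or by DESeq2 (0.00719% and 0.036% of all genes). At an unadjusted p under 0.05, 8 of the 34 differed, as did 7.75% of all genes: 7 were lower in APOE3S/S (Gclc, Akr1b8, Cat, Srxn1, Slc7a11, Txnrd1 and Nqo1) and Gpx4 was higher. Gclc was at 42.9, 50.6 and 62.7 CPM (lowest, median and highest) in 6 APOE3 libraries and at 40.9, 25.5, 52.2 and 28.8 CPM in 4 APOE3S/S libraries, which overlapped (difference -0.46 ± 0.14, adjusted p = 0.64). Srxn1, sulfiredoxin, which repairs overoxidized peroxiredoxins, was at 111, 123 and 172 CPM in APOE3 and at 97.2, 74.8, 107 and 86.8 CPM in APOE3S/S. It alone of the 34 (1 gene) had all APOE3S/S libraries below all APOE3 libraries (0.223% of all genes tested), with a difference of -0.48 ± 0.18 (adjusted p = 0.64).

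With tau, edgeR and DESeq2 called 0 of the 34 between the genotypes (0.0144% and 0.0216% of all genes). At an unadjusted p under 0.05, 3 were lower in APOE3S/S (Akr1b8, Cat and Nqo1), where 2.16% of all genes passed in either direction. Akr1b8 was at 13.3, 18.8 and 23.6 CPM in APOE3 tau libraries and at 9.23, 12.2 and 16.4 CPM in APOE3S/S, which overlapped (difference -0.62 ± 0.16, adjusted p = 0.9996). Cat differed by -0.23 ± 0.09 and Nqo1 by -0.63 ± 0.28. In untreated cells Akr1b8 was at 14.0, 19.4 and 24.8 CPM in APOE3 and at 16.4, 8.92, 12.9 and 11.3 CPM in APOE3S/S (difference -0.61 ± 0.19). None of the 34 was called in either title series alone. Of all genes, 0% (SAN) and 0.0274% (second series) were called untreated, and 0.0145% and 0.0548% with tau. With tau the Akr1b8 difference was -0.37 ± 0.19 in the SAN series and -0.91 ± 0.21 in the second.

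Amyloid was given only in the SAN title series. In APOE3 microglia edgeR and DESeq2 called 0 of the 34 genes. Of all 13867 genes tested, edgeR called 0% and DESeq2 2.13%. At an unadjusted p under 0.05, 7 of the 34 differed (13.1% of all genes), 3 higher and 4 lower. Glrx was at 63.7, 66.8 and 65.7 CPM untreated and at 114, 126 and 111 CPM with amyloid (0.83 ± 0.26, adjusted p = 0.23). Sod2 was at 122, 135 and 149.5 CPM and at 242, 247 and 253 CPM (0.86 ± 0.38, adjusted p = 0.36), and Prdx5 at 485, 411 and 322 CPM and at 676, 727 and 629 CPM (0.72 ± 0.29, adjusted p = 0.32). In all 3 genes the amyloid libraries lay above the untreated ones, as in 6 of the 34 and 13.4% of all genes, and in 9 of the 34 and 10.9% of all genes they lay below. The lower ones were Akr1b8 (-0.89 ± 0.28), Sqstm1 (-0.47 ± 0.16), Gstm1 (-0.52 ± 0.18) and Gclc (-0.46 ± 0.20). Nqo1 was at 6.68, 7.17 and 6.24 CPM with amyloid (0.27 ± 0.47, adjusted p = 0.81), and Slc7a11 at 53.3, 47.2 and 36.9 CPM, against 31.9, 35.0 and 71.7 CPM untreated (-0.01 ± 0.62). The tau and amyloid changes share the untreated SAN libraries, so they stand side by side only.

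APOE3S/S amyloid replicate 3 enters the APOE3 fit through the shared spread. Without it, 0 of the 34 and 0% of all genes were called by edgeR for amyloid in APOE3 microglia, and 12 of the 34 (3 higher, 9 lower) and 15.2% of all genes had an unadjusted p under 0.05. A fit of the 2 groups alone called 5 of the 34 and 4.44% of all genes.

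For amyloid in APOE3S/S microglia 0 of the 34 were called as well (edgeR and DESeq2, with 0% and 0.0144% of all genes). In edgeR 9, all higher, had an unadjusted p under 0.05 (8.52% of all genes in either direction). The 3 amyloid libraries were far apart. Nqo1 was at 3.97 and 5.32 CPM in the 2 untreated libraries and at 6.97, 8.38 and 30.5 CPM with amyloid, Slc7a11 at 26.5 and 25.5 CPM and at 22.1, 37.0 and 192 CPM, and Prdx1 at 1187 and 1534 CPM and at 1684, 1912 and 3889 CPM. The third amyloid library was the high one each time. The SAN tau libraries of this genotype were at 24.0, 25.6 and 25.2 CPM for Nqo1 and 179, 104 and 234 CPM for Slc7a11. In 26 of the 34 genes the third amyloid library was the highest of its group and reached the lowest SAN tau library or more, as in 36.8% of 12071 genes. Without it, edgeR called 0 of the 34 and 0% of all genes, and 2 of the 34 (Nqo1, 0.78 ± 0.22, and Glrx, 0.76 ± 0.25) and 4.96% of all genes had an unadjusted p under 0.05. Without untreated replicate 2, which leaves 1 untreated library assumed to vary like the other groups, 2 of the 34 and 2.91% of all genes were called.

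The amyloid changes of the genotypes were compared by an interaction term. With it edgeR and DESeq2 each called 0 of the 34 and 0% of all genes. Esd (1.00 ± 0.39), Prdx1 (1.08 ± 0.43) and Akr1b8 (0.99 ± 0.42) were higher at an unadjusted p under 0.05 (3.71% of all genes in either direction). Without the library that stands apart, edgeR called 0 of the 34 and 0% of all genes, and Esd (0.55 ± 0.20) and Prdx1 (0.63 ± 0.28) had an unadjusted p under 0.05 (4.99% of all genes).

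Between amyloid libraries of the genotypes edgeR called 0 of the 34 and 0% of all genes, and DESeq2 called 1 of the 34 (0.425% of all genes). At an unadjusted p under 0.05 in edgeR, 7 differed, all higher in APOE3S/S (12.1% of all genes in either direction). Without the library that stands apart, edgeR called 0 of the 34 and 0% of all genes. Then 7 of the 34 and 11.4% of all genes had an unadjusted p under 0.05, 3 higher (Glrx, Prdx1 and Keap1) and 4 lower (Cat, Gclm, Gstm1 and Txnrd1). The median difference over the 34 was 0.29 with that library and 0.01 without it.

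Tau and amyloid were compared directly over the 17 SAN libraries. In APOE3 microglia 21 of the 34 genes were higher with tau than with amyloid and 0 lower, where 4.13% of all 14131 genes were called higher and 3.21% lower. In 29 of the 34 all 3 tau libraries lay above all 3 amyloid libraries, which held for 15.1% of all genes. In 1, Sod1, they all lay below, as in 27.9% of all genes. The median difference was 0.79, against 0.00 over all genes tested. Called were 5 of the 6 genes for glutathione supply, 7 of the 8 thioredoxin and peroxiredoxin genes, 3 of 5 detoxifying genes, 3 of 5 NADPH genes, 2 of 5 regulators and 1 of 5 peroxide and superoxide genes.

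Nqo1 was at 29.6, 29.4 and 37.8 CPM with tau and at 6.68, 7.17 and 6.24 CPM with amyloid, a difference of 2.36 ± 0.39 (adjusted p = 0.0059). Slc7a11 differed by 2.44 ± 0.58 (adjusted p = 0.023), with 215, 200.2 and 283 CPM against 53.3, 47.2 and 36.9 CPM. Prdx1 differed by 1.43 ± 0.27 (adjusted p = 0.0096), with 3117, 3103 and 4252 CPM against 1414, 1424 and 1303 CPM. None of these values overlapped between the treatments. Sod2 and Glrx were also higher with tau than with amyloid (by 1.70 ± 0.34 and 1.13 ± 0.23, adjusted p = 0.013 and 0.013). Akr1b8 (1.02 ± 0.24, adjusted p = 0.024) and Srxn1 (1.08 ± 0.22, adjusted p = 0.013), which were not called for tau against untreated cells over both series, were called here, with amyloid values of 13.6, 9.21 and 7.92 CPM and of 96.0, 77.8 and 79.7 CPM.

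Of the 21 genes, Nqo1 was the only one that remained called whichever of the 6 tau and amyloid APOE3 libraries was left out. The count of genes called was 1 without tau replicate 6, 2 without amyloid replicate 3, 6 without amyloid replicate 1 or 2, 9 without tau replicate 5 and 16 without tau replicate 4, where 0.411% to 4.07% of all genes were called. Without APOE3S/S amyloid replicate 3, which enters this fit through the shared spread, 22 of the 34 were called, all 21 among them (5.43% of all genes called higher).

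Of the lists around the pathway, 8 of 24 other NRF2 targets were higher with tau than with amyloid in APOE3 microglia and 1 lower. The smallest p were those of Ptgr1, a reductase of leukotrienes and alkenals (0.96 ± 0.19, adjusted p = 0.013), and Blvrb, biliverdin reductase B (0.95 ± 0.20, adjusted p = 0.016), and Hmox1 was called too (0.68 ± 0.18, adjusted p = 0.037). Of the 16 genes of the ATF4 response 7 were higher and 0 lower, of the 10 oxidant producers 4 and 0 (Nos2 by 4.20 ± 1.05, adjusted p = 0.028), and of the 29 other redox enzymes 2 and 3. Of the 10 other regulators edgeR called 0, with 2 at an unadjusted p under 0.05.

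Between tau and amyloid in APOE3S/S microglia 0 of the 34 were called with edgeR (0.149% of all genes called in either direction) and 1 with DESeq2 (1.08%). At an unadjusted p under 0.05 in edgeR, 12 were higher with tau (3.98% of all genes higher). Amyloid replicate 3 was set apart because most of these same genes were high in it, so leaving it out raises their differences by selection. Without it, amyloid replicates 1 and 2 remained. In that fit 17 of the 34 were called higher with tau and none lower, where 1.63% of all genes were called higher. Nqo1 then differed by 1.70 ± 0.17 (adjusted p = 0.00033) and Slc7a11 by 2.55 ± 0.38 (adjusted p = 0.0028). Gclm, the light subunit of glutamate-cysteine ligase, differed by 1.44 ± 0.18 (adjusted p = 0.0014). With that library the difference was 0.72 ± 0.37 for Nqo1, 1.06 ± 0.55 for Slc7a11 and 0.66 ± 0.32 for Gclm.

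**Figure D4:**
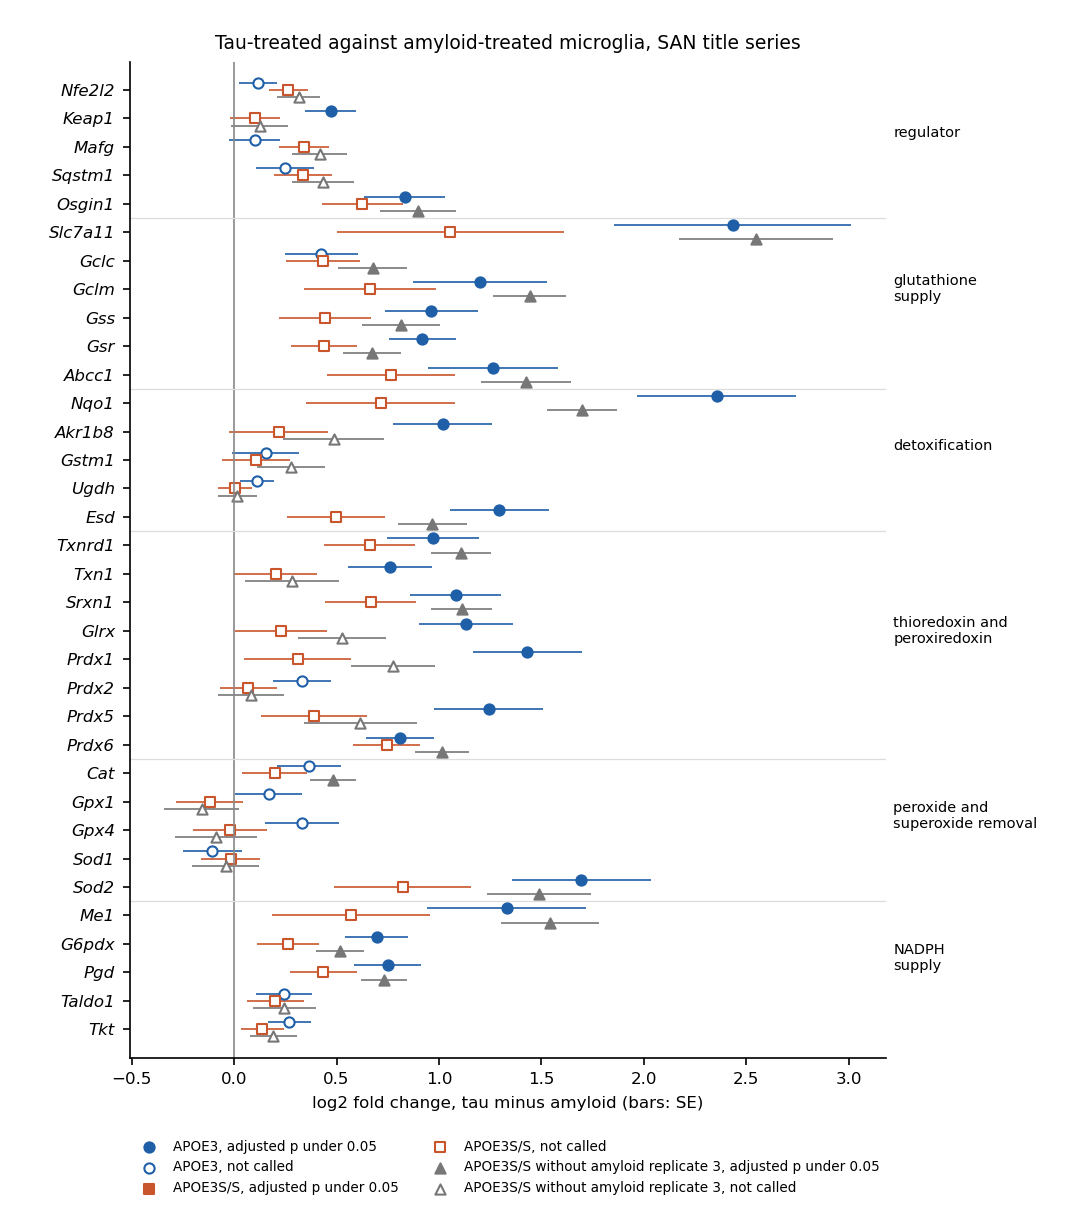
Log2 fold change of tau against amyloid (x axis, with standard errors) in SAN title series libraries for the 34 genes (y axis, grouped by role), in APOE3 (circles), APOE3S/S (squares) and APOE3S/S without amyloid replicate 3 (triangles), with filled symbols for genes called at an adjusted p under 0.05. Of the genes 21 are filled for APOE3, 0 for APOE3S/S and 17 for APOE3S/S without that library, which was set apart by high values of these genes.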

How the data were processed

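The deposited data were 2 tables of gene counts, whole numbers with no normalisation as deposited by the authors, one of 22 libraries (tau study) and one of 11 (amyloid study). They had 5 untreated libraries in common, each used once. Libraries were made with a QuantSeq 3′ forward kit, per the labels' protocols. The submitters' processing notes name the GRCm38 (mm10) genome and DESeq2 1.38.3. Which aligner and counter were run is not given in the sources used here. Of 60976 entries, 6360 held no number and 189 repeated a symbol, and these were dropped. Gene coordinates are from GENCODE M21 (GRCm38).

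The members and gene lists were chosen with earlier results of these data known, so no pattern here is independent support. Tau fits used 22 libraries (group and title series terms), the title series fit the same libraries with a mean per genotype, treatment and series, amyloid fits 11 SAN libraries, and tau against amyloid 17 SAN libraries. The low-count filter was filterByExpr with the groups. After TMM scaling, edgeR 4.0.16 gave quasi-likelihood F tests, and p-values were adjusted by the Benjamini-Hochberg method across every gene in the fit. A call needed an adjusted p under 0.05. A value after ± is the standard error of a log2 fold change, worked out from that change and its F statistic. The fits were tested on simulated counts with a common spread for all genes and no title series effect, unlike these libraries. All members could be named. Results for some marker genes are not reported here. Genes of the other lists were named by rule, at most 3 called with the smallest p per list in tau against untreated and 2 elsewhere. Hmox1, after its values were seen, and Ephx1 in APOE3 microglia were named beyond this rule. Alternatives were RLE scaling, no filter, a filter at 10 CPM, DESeq2 1.42.0, each title series alone, the 2 groups alone, a replicate block and each library left out. Depth was 14464761 to 27220695 counts, and errors cover the spread between these libraries only.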

Additional observations from a re-analysis of the deposited data

Results flagged for a closer look

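The tau change differed between the 2 title series, by the test of the difference itself, in 14 genes in APOE3 microglia. The log2 differences, SAN minus second series, were 1.74 for Sod2, 1.52 for Nqo1, 1.33 for Prdx1, 1.22 for Abcc1, 1.20 for Prdx5, 1.16 for Glrx and 1.13 for Me1. They were 0.89 for G6pdx, 0.86 for Gss, 0.76 for Pgd, 0.73 for Txnrd1, 0.72 for Esd, 0.58 for Gsr and 0.53 for Tkt. In APOE3S/S microglia 10 genes differed: Me1 by 1.57, Prdx1 by 1.51, Esd by 1.25, Gss by 1.13, Pgd by 1.04, Txnrd1 by 1.04, Srxn1 by 1.00, Prdx6 by 0.90, G6pdx by 0.82 and Tkt by 0.71. Whether a gene that differed in 1 genotype and not in the other differs between them was not tested.

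Of 136 combinations of a gene and a group of 4 or 6 libraries, 5 had a library with a wide gap to the others, and chance alone gives about 1 in 20. Srxn1 was at 172 CPM in APOE3 untreated replicate 4, against 111 to 128 CPM in the other libraries of the group. In APOE3S/S tau replicate 5, Prdx2 was at 214 CPM (others 154 to 174) and Taldo1 at 757 CPM (others 492 to 586). Sod2 was at 244 CPM in APOE3S/S untreated replicate 2 (others 94.2 to 119), and Tkt at 434 CPM in APOE3 untreated replicate 3 (others 496 to 516).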

How the results depend on the processing

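Recomputing 149 gene-level log2 values under the alternatives left 1779 with the same direction and call, gave a call to 133, took it from 247 and turned the sign of 7. Those 7, none of them called over both series, were all from the second title series alone: with tau in APOE3 microglia Prdx1 (-0.073) and G6pdx (-0.121), and in APOE3S/S microglia Osgin1 (-0.101), Esd (-0.098), Txnrd1 (-0.118), Srxn1 (-0.055) and G6pdx (-0.063). For tau against untreated in APOE3 microglia, 10 of the 34 genes were called (14.8% of all genes, in either direction, as for each share here). No filter on low counts gave 17 (8.33%), the SAN series alone 19 (19%) and the second alone 4 (2.55%). In APOE3S/S microglia 5 were called (3.28% of all genes). No filter gave 14 (5.08%), DESeq2 8 (6.8%) and the 2 groups alone 3 (1.97%). The SAN series alone gave 17 (4.63%) and the second alone 0 (2.26%). Leaving out each library in turn gave 8 to 13 in APOE3 (11.1% to 16.7% of all genes) and 0 to 7 in APOE3S/S microglia (0.24% to 5.91%). Tau by title series gave 4 to 12 in APOE3 microglia and 0 to 16 in APOE3S/S microglia, where no filter gave 20. That 20 came with 2.71% of all genes. Where 0 were called, no filter gave 1 of the 34 for the tau by genotype interaction (0.525% of all genes). It gave 10 (1.21%) and 3 (0.148%) for the genotypes untreated and with tau, and 8 (2.88%) for the genotypes with amyloid. For amyloid it gave 8 (3.92%) in APOE3 and 9 (2.59%) in APOE3S/S microglia, and 4 (0.292%) for the amyloid by genotype interaction. For tau against amyloid in APOE3S/S microglia it gave 11 (1.82%). The cause was not tested. The 2 groups alone gave 5 (4.44% of all genes) for amyloid in APOE3 microglia and 1 (2.71%) for the genotypes with amyloid. DESeq2 gave 1 (0.425%) for the genotypes with amyloid and 1 (1.08%) for tau against amyloid in APOE3S/S microglia. With a library left out, amyloid in APOE3S/S microglia gave 0 to 2, tau against amyloid 1 to 22 in APOE3 and 0 to 17 in APOE3S/S microglia, and the interactions and genotype comparisons 0. The fit without APOE3S/S amyloid replicate 3 for APOE3 comparisons (which gave the 22) was added after seeing the data. The replicate block by title number called 0 of the 34 in the 3 genotype comparisons. Of all genes it called 0.00781% untreated, 0.00774% with tau and 1.53% with amyloid. Same-numbered libraries correlated by -0.18 to 0.19, with 2 or 3 pairs at a time, too few to tell whether they share more than a number. With 2 to 6 libraries a group, differences near their standard errors could not be seen.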
